A study of Mus musculus with 12 samples.

Results

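The genes described here are 36 cell cycle and proliferation genes of the mouse, listed by symbol. Earlier results of these data were known when the list was made. They span the order of the cycle: regulators of entry into S phase, DNA replication and deoxynucleotide supply, the later cyclins with Cdk1, and the machinery of mitosis. Of the 36, 35 had a probe set annotated to that symbol alone, among 18193 genes with such a probe set. Ccnb1 had none and so has no expression value here, but its promoter is counted below. A further 8 lay below the level filter used for testing, so 27 of the 12921 genes tested were members.

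The values are log2 expression in whole lung of mice aged 8 to 12 weeks, from 12 Affymetrix arrays in 4 groups of 3. The group called rhPBEF+VALI received recombinant human PBEF, 20 µg for each mouse, by injection into the trachea, and was ventilated for 4 hours with a tidal volume of 30 ml/kg. The rhPBEF group had the injection alone (in 1.5 µl water for each gram of body weight, as in the combined group). The VALI group had the ventilation alone, and the Control group received phosphate-buffered saline. PBEF is the extracellular form of the enzyme nicotinamide phosphoribosyltransferase, and ventilation with very large breaths stretches and injures the lung. The labels give neither the strain nor the interval between injection and tissue collection. They also do not say whether the VALI animals were given saline, so ventilation and a missing injection cannot be told apart in VALI against Control. The rhPBEF injection was in water and Control received saline. Protein and vehicle therefore cannot be told apart where a group given rhPBEF is compared with one that was not. Nothing states that the 3 arrays of a group came from separate mice, and p-values then measure only the spread between arrays, which may be technical.

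A resting cell enters the cycle when cyclin-dependent kinases inactivate the retinoblastoma protein and release E2F transcription factors, which turn on genes for DNA replication. Genes for mitosis are switched on later, in G2, through the MuvB, B-Myb and FOXM1 complexes, and are held off in resting cells by the DREAM complex. In the adult lung few cells divide, and division is known to increase over days after injury, as surviving epithelial and endothelial cells repopulate the tissue. Whole-tissue RNA averages over all cells, so a change in the number of cycling cells and a change of RNA per cycling cell cannot be told apart.

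The arrays carried lung RNA: the surfactant genes Sftpc and Sftpb averaged 14.91 and 14.06 on the log2 scale, the club cell gene Scgb1a1 14.95 and the endothelial gene Cldn5 12.91. Array medians lay between 7.0 and 7.07. Markers of mature neutrophils (8 of 9 measured and tested) averaged 1.93 to 3.41 above the Control mean in the rhPBEF+VALI arrays, 2.29 to 2.75 in the rhPBEF arrays and 0.72 to 3.21 in the VALI arrays, against -0.21 to 0.17 in the Control arrays. Summed on the linear scale they reached 18279 to 44207 in rhPBEF+VALI, 22228 to 33113 in rhPBEF and 6941 to 39121 in VALI, against 2876 to 4205 in Control. There were 3 libraries that stood apart. Skeletal muscle markers were 3.65 above the Control mean in rhPBEF replicate 2 and 2.59 in VALI replicate 3, against -0.34 to 0.18 in the other 10 arrays. VALI replicate 2 held the lowest value of all 12 arrays for 3191 of the genes tested and the highest for 2007. With the pair of muscle-rich arrays left out, 0 members passed in any of the 8 comparisons, and the share of all genes past in that fit is not given here. Without VALI replicate 2 the differences of Rrm1, Rrm2 and Cdk1 in VALI against Control turned sign.

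None of the 27 tested members passed an adjusted p of 0.05 (limma, Benjamini and Hochberg over all genes tested) in any of 8 comparisons. For the combined treatment against Control the count was 0 of 27, beside 8.79% of all genes tested. For rhPBEF against Control it was 0 of 27, beside 1.22%, and for VALI against Control 0 of 27, beside 0.00774%. For rhPBEF+VALI against VALI it was 0 of 27, beside 0.325%, and for rhPBEF+VALI against rhPBEF again 0 of 27, beside 0.00774%. In the effect of rhPBEF averaged over ventilation it was 0 of 27, beside 4.67%. In the effect of ventilation averaged over rhPBEF it was 0 of 27, beside 0.549%, and in the interaction 0 of 27, beside 0% of genes.

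Single members also passed an unadjusted p under 0.05 in 6 of the 8 comparisons. In rhPBEF+VALI against Control 2 members passed (Mcm2 and Mcm4), beside 27.5% of all genes, in rhPBEF against Control 1 (Mcm4), beside 18.3%, and in VALI against Control 2 (Mcm4 and Mki67), beside 15.5%. No member passed in rhPBEF+VALI against VALI, beside 9.98%, or in the interaction, beside 2.23%. Cdc6 and Cdca8 passed in rhPBEF+VALI against rhPBEF, beside 3.77%. E2f1 and Mcm4 passed for rhPBEF averaged over ventilation, beside 23.7%. Cdc6, Mcm4, Cdca8, Prc1 and Mki67 passed for ventilation averaged over rhPBEF, beside 16.6%. These shares were not tested against each other.

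The intervals show how large a change the arrays could have missed. In each of the 8 comparisons the 95% interval of all 27 members lay within a 2-fold change in either direction. Within a 1.5-fold change lay 23 of 27 members for rhPBEF+VALI, 23 for rhPBEF and 24 for VALI, each against Control. Against Control the widest intervals belonged to Cdc6 and Rrm2, with a half-width of 0.48 on the log2 scale, and the median half-width was 0.28. The median difference of the members was 0.00 for rhPBEF+VALI, -0.11 for rhPBEF and 0.04 for VALI, against -0.06, -0.07 and -0.04 over all genes in the same comparisons. With 1 array left out the members' median ran from -0.05 to 0.09 for rhPBEF+VALI, -0.17 to -0.06 for rhPBEF and 0.00 to 0.11 for VALI, and 2 to 7, 1 to 4 and 3 to 8 of the 27 members turned sign.

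**Figure D1:**
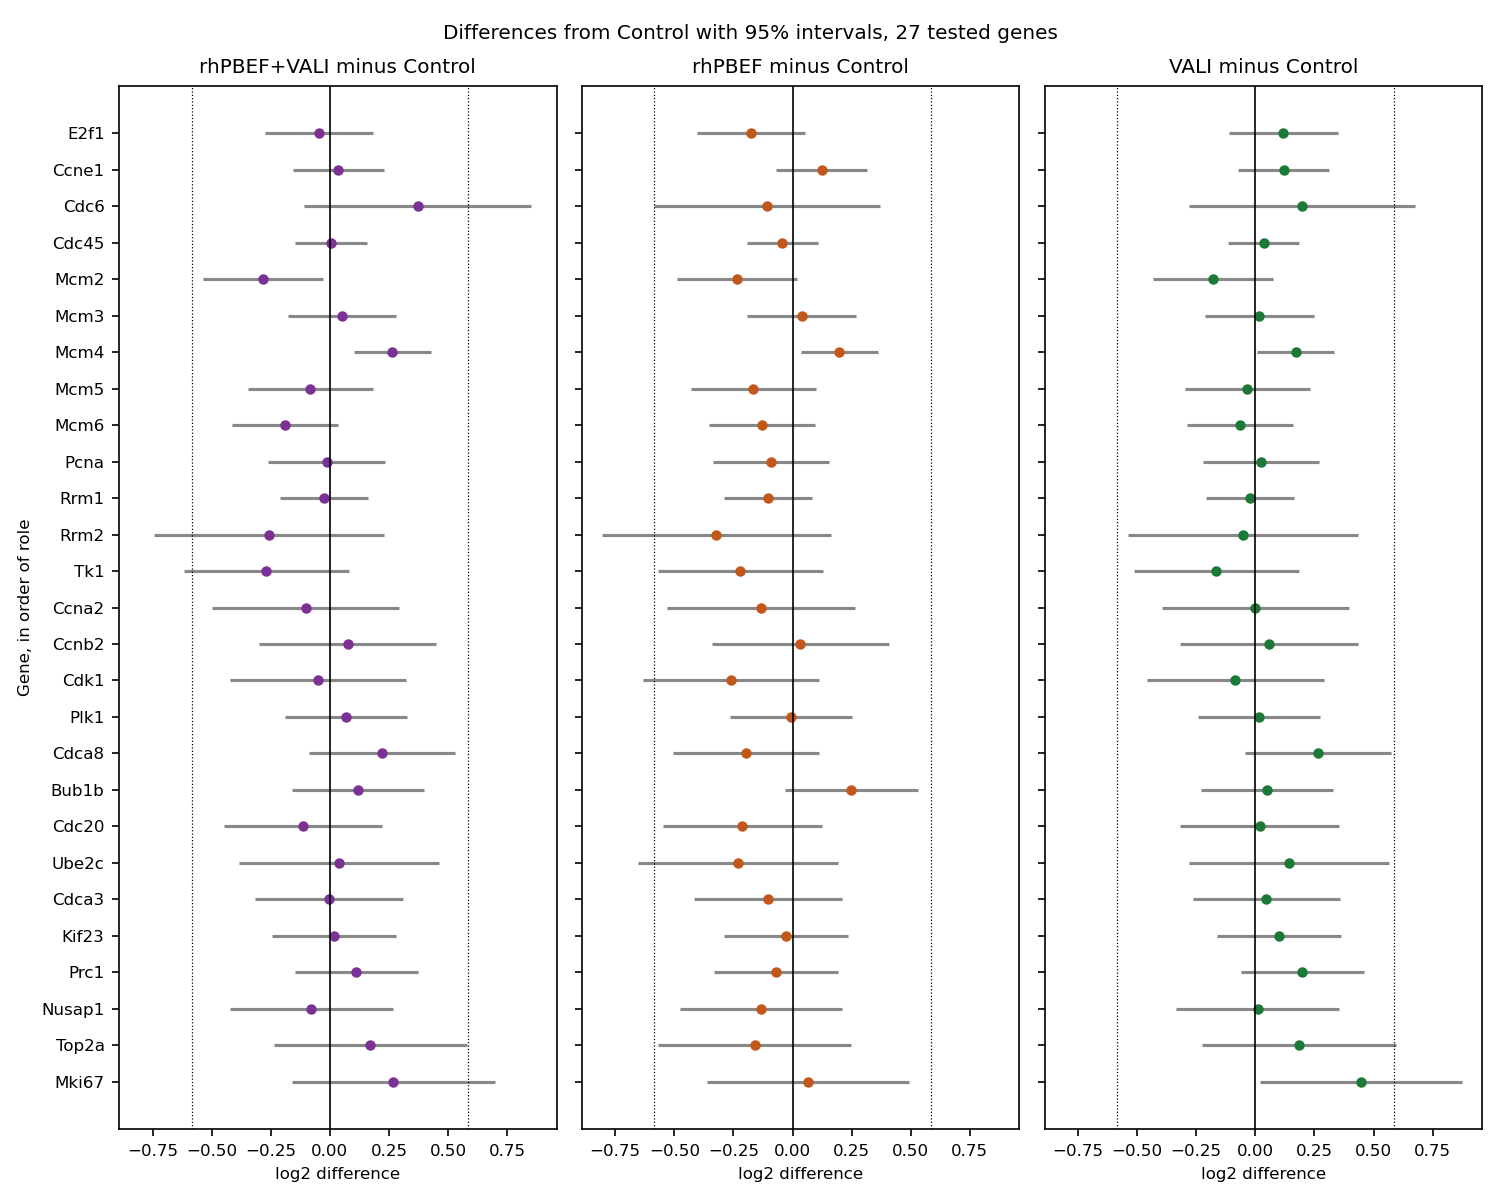
log2 difference from Control (horizontal axes) of the 27 tested members, in order of role, for rhPBEF+VALI, rhPBEF and VALI. Points are fitted differences, bars are 95% intervals from limma with 3 arrays in a group, and dotted lines mark a 1.5-fold change. The largest differences are 0.45 for Mki67 in VALI and 0.37 for Cdc6 in rhPBEF+VALI (0.15 without rhPBEF+VALI replicate 3), and no interval reaches a 2-fold change.

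E2f1 and the E cyclins act at the G1/S boundary, E2f1 as the transcription factor that opens the replication programme and cyclin E as the activator of Cdk2. E2f1 had log2 levels of 7.58, 7.73 and 7.78 in rhPBEF+VALI, 7.64, 7.58 and 7.48 in rhPBEF and 7.89, 7.83 and 7.86 in VALI, against 7.58, 7.68 and 7.98 in Control. The 3 VALI arrays were tightly grouped above all rhPBEF+VALI and rhPBEF arrays, while the Control arrays spread from 7.58 to 7.98, with 1 array of rhPBEF below that range. Its difference was -0.18 ± 0.10 (SE) for rhPBEF and 0.12 ± 0.10 for VALI against Control, with adjusted p of 0.398 and 0.591 from limma. Without Control replicate 3 these differences were -0.06 and 0.24. A second E2f1 probe set above the filter was on the other side of Control in VALI, at -0.09, and gave -0.21 in rhPBEF. Ccne1 differed by 0.03 in rhPBEF+VALI, 0.12 in rhPBEF and 0.12 in VALI, and its arrays overlapped with Control in each. Ccne2 lay below the filter at a mean level of 4.93.

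The replication genes encode the licensing factor Cdc6, the Mcm2 to Mcm6 subunits of the replicative helicase, its activator Cdc45 and the sliding clamp Pcna, and all 8 were tested. Mcm4 had log2 levels of 9.15, 9.16 and 8.95 in rhPBEF+VALI, 9.0, 9.08 and 8.98 in rhPBEF and 9.01, 9.0 and 8.96 in VALI, against 8.77, 8.84 and 8.85 in Control. Each of the 9 treated arrays exceeded each Control array. The difference was 0.26 ± 0.07 (SE) for rhPBEF+VALI, 1.20-fold, with a limma adjusted p of 0.0502, just outside the threshold. For rhPBEF it was 0.20 ± 0.07 (adjusted p = 0.200) and for VALI 0.17 ± 0.07 (adjusted p = 0.304). The second Mcm4 probe set above the filter differed by 0.59 in rhPBEF+VALI and by 0.31 in VALI, in the same direction. Without rhPBEF+VALI replicate 3 the Mcm4 difference was 0.33 with an adjusted p of 0.0109, and without VALI replicate 2 it was 0.26 with an adjusted p of 0.0409.

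Mcm2, another subunit of the same helicase, was on the opposite side of Control. Its levels were 8.96, 8.87 and 9.09 in rhPBEF+VALI, 9.08, 8.87 and 9.12 in rhPBEF and 9.02, 9.03 and 9.19 in VALI, against 9.10, 9.17 and 9.50 in Control. All rhPBEF+VALI arrays lay below all Control arrays, narrowly, and Control replicate 3 was the highest of the 12. The difference for rhPBEF+VALI was -0.28 ± 0.12 (SE, limma adjusted p = 0.142), and -0.16 without that Control array (adjusted p = 0.399). Mcm5 and Mcm6 differed by -0.08 and -0.19 in the same comparison, Mcm3 by 0.05, Cdc45 by 0.00 and Pcna by -0.01. The second probe set of Mcm6 turned its direction, at 0.04, that of Mcm5 gave -0.41, and the 4 Mcm3 probe sets above the filter ran from -0.03 to 0.08. On the probe sets used, helicase subunits stood on both sides of Control in the same arrays.

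Cdc6 was the most scattered of the replication genes and lay just inside the filter, with a mean level of 6.45. It had 6.48, 6.49 and 7.15 in rhPBEF+VALI, 5.89, 6.07 and 6.72 in rhPBEF and 6.55, 6.49 and 6.56 in VALI, against 6.17, 6.40 and 6.44 in Control. The third replicate was the highest array of both rhPBEF groups. Its difference was 0.37 ± 0.22 (SE) for rhPBEF+VALI against Control, with a limma adjusted p of 0.296, and 0.48 ± 0.22 for rhPBEF+VALI against rhPBEF, with an adjusted p of 0.999. Without rhPBEF+VALI replicate 3 they were 0.15 and 0.26.

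Deoxynucleotides are supplied by ribonucleotide reductase, whose subunits are Rrm1 and Rrm2, by thymidylate synthase (Tyms) and by thymidine kinase (Tk1). All 3 tested genes of this role had negative differences in each of the 3 treatments against Control, between -0.32 and -0.02, and none passed the test. Part of this rested on single arrays: without VALI replicate 2 the VALI difference turned to 0.25 for Rrm2 and 0.05 for Rrm1 and was -0.03 for Tk1, and without rhPBEF+VALI replicate 3 the rhPBEF+VALI difference of Rrm1 was 0.00. A second Rrm1 probe set gave -0.20 in rhPBEF+VALI, -0.14 in rhPBEF and -0.19 in VALI. Rrm2, the subunit whose amount is tied to S phase, had levels of 7.15, 7.14 and 7.02 in rhPBEF+VALI, 7.35, 6.99 and 6.79 in rhPBEF and 7.52, 6.71 and 7.70 in VALI, against 7.49, 7.28 and 7.32 in Control. VALI replicate 2 held its lowest value and VALI replicate 3 its highest. The difference was -0.32 ± 0.22 (SE) for rhPBEF, with a limma adjusted p of 0.465 (-0.20 without rhPBEF replicate 3), and -0.26 for rhPBEF+VALI. Averaged over ventilation, rhPBEF gave -0.26, and -0.41 with an adjusted p of 0.0440 when VALI replicate 2 was left out. Tk1 differed by -0.27 in rhPBEF+VALI, -0.22 in rhPBEF and -0.17 in VALI, and Tyms lay below the filter at a mean level of 4.79.

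**Figure D2:**
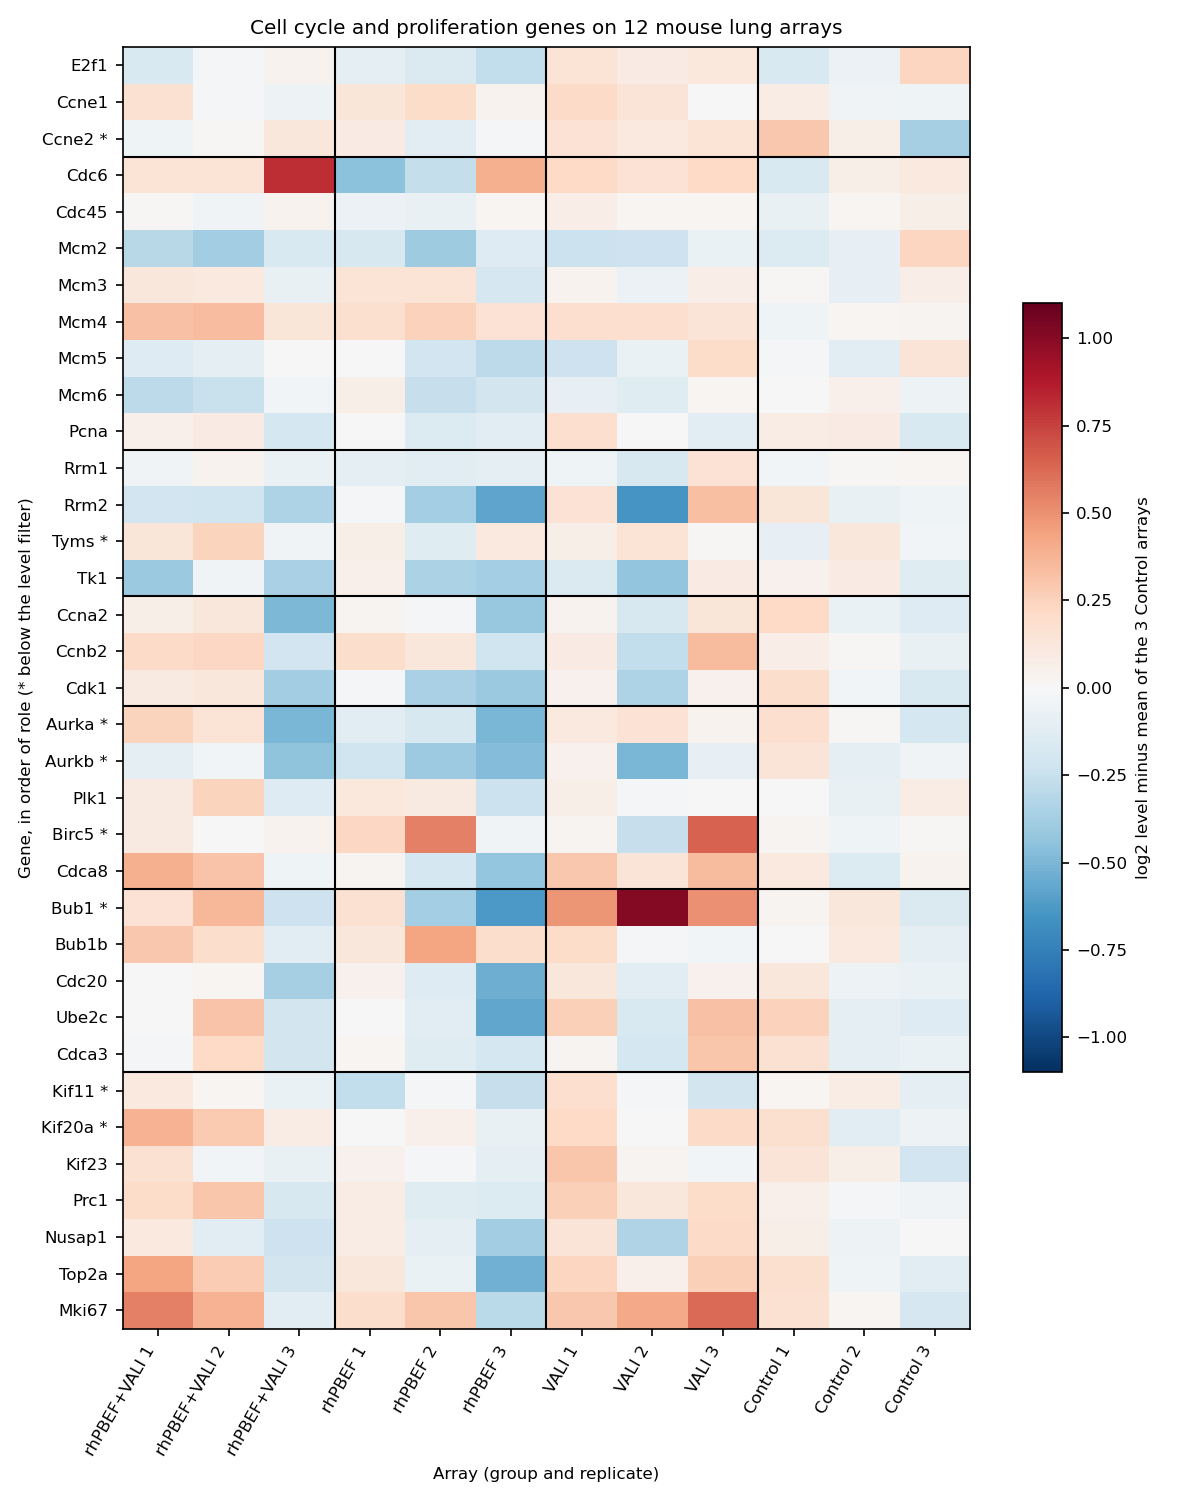
Each cell gives 1 member (rows, in order of role, with black lines between roles) on 1 array (columns, by group) as the log2 level minus the mean of the 3 Control arrays. Members marked with an asterisk lay below the level filter. Mcm4 is above the Control mean in all 9 treated arrays, and most genes from Ccna2 downward are lowest of their group in the third array of rhPBEF+VALI and of rhPBEF.

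Among the tested genes of G2 and mitosis the largest difference from Control was that of Mki67, the gene of the Ki-67 antigen used to count cycling cells. Its levels were 8.31, 8.14 and 7.63 in rhPBEF+VALI, 7.95, 8.06 and 7.47 in rhPBEF and 8.06, 8.18 and 8.39 in VALI, against 7.92, 7.78 and 7.58 in Control. The VALI arrays lay above all Control arrays, whereas both rhPBEF groups overlapped with Control. The VALI difference was 0.45 ± 0.19 (SE), or 1.36-fold, with a limma adjusted p of 0.302, and it lay between 0.31 and 0.53 under 24 other settings without passing the threshold. In rhPBEF+VALI the difference was 0.27 (adjusted p = 0.40), and from 0.13 without replicate 1 to 0.47 without replicate 3.

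Cdca8, the borealin subunit of the chromosomal passenger complex, had 7.05, 6.97 and 6.62 in rhPBEF+VALI, 6.69, 6.47 and 6.23 in rhPBEF and 6.96, 6.81 and 7.01 in VALI, against 6.77, 6.51 and 6.70 in Control. VALI arrays were above Control arrays and rhPBEF arrays overlapped with them at the low end. The effect of ventilation averaged over rhPBEF was 0.34 ± 0.10 (SE), the largest of the 27 members in that comparison, with a limma adjusted p of 0.152. Without rhPBEF+VALI replicate 3 it was 0.41 with an adjusted p of 0.0398. A second Cdca8 probe set above the filter gave 0.19 for this effect, and 0.11 in VALI against Control where the first gave 0.26. Prc1, which bundles the microtubules of the central spindle, differed by 0.20 ± 0.12 in VALI (adjusted p = 0.425) with no overlap between the groups.

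Cdc6, Mcm4, Cdca8, Prc1 and Mki67 were higher in each VALI array than in each Control array, 5 of 27 beside 9.1% of all genes, and 0 of 27 were lower in each, beside 15.5%. In rhPBEF+VALI, Cdc6 and Mcm4 were higher in each array, beside 12.5%, and Mcm2 and Rrm2 lower, beside 24.4%. In rhPBEF, Mcm4 and Bub1b were higher in each array, beside 9.24%, and Rrm1 was lower, beside 24%. By sign alone, 20 of 27 members had a positive difference in VALI, against 41.0% of all genes, 14 of 27 in rhPBEF+VALI, against 38.2%, and 6 of 27 in rhPBEF, against 34.3%. With 1 array left out these counts ran from 14 to 23 in VALI, 12 to 19 in rhPBEF+VALI and 3 to 10 in rhPBEF. Genes of a role share regulation and were measured on the same arrays, so these counts carry no test.

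The later cyclins and their kinase differed little. Ccna2, the cyclin of S and G2 phases, differed by 0.00 in VALI, -0.13 in rhPBEF and -0.10 in rhPBEF+VALI. Ccnb2, a mitotic cyclin, differed by 0.08 in rhPBEF+VALI, 0.03 in rhPBEF and 0.06 in VALI. Cdk1, the kinase that drives entry into mitosis, differed by -0.26 in rhPBEF (-0.16 without Control replicate 1) and by -0.08 in VALI (0.05 without VALI replicate 2), and Plk1, the polo-like kinase of early mitosis, by 0.07 in rhPBEF+VALI, -0.01 in rhPBEF and 0.02 in VALI. The adjusted p of these genes lay far above the threshold, with limma values of 0.441 for Cdk1 in rhPBEF and 0.739 for Plk1 in rhPBEF+VALI.

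The spindle checkpoint kinase gene Bub1b had 7.53, 7.85 and 7.60 in rhPBEF, against 7.41, 7.52 and 7.30 in Control, a difference of 0.25 ± 0.13 (SE, limma adjusted p = 0.323). The lowest rhPBEF array narrowly exceeded the highest Control array, and the other tested genes of the same role went the other way: Cdc20, an activator of the anaphase-promoting complex, at -0.21, its ubiquitin-conjugating enzyme gene Ube2c at -0.23, and Cdca3 at -0.10. Without rhPBEF replicate 3 these were -0.05, -0.06 and -0.06, and Bub1b was 0.16 without rhPBEF replicate 2. A second Bub1b probe set gave 0.57. Among spindle and chromosome genes, Top2a, the topoisomerase that untangles chromosomes, differed by 0.17 in rhPBEF+VALI, -0.16 in rhPBEF and 0.18 in VALI. The rhPBEF value of Top2a was 0.02 without rhPBEF replicate 3, and the rhPBEF+VALI value was 0.04 without replicate 1 and 0.36 without replicate 3. A second Top2a probe set above the filter gave 0.08 in rhPBEF+VALI, 0.03 in rhPBEF and 0.08 in VALI, with the other sign in rhPBEF. Kif23, a kinesin of the midzone, differed by 0.10 in VALI and Nusap1, a spindle-binding protein gene, by 0.01.

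The 8 members below the filter were Ccne2, Tyms, Aurka, Aurkb, Birc5, Bub1, Kif11 and Kif20a. The closest to it were Aurka at a mean level of 6.37 and Birc5 at 6.31, with Cdc6 and Cdca3 at 6.45 just inside. In a fit without the filter none of the 8 passed against Control, with differences from -0.36 for Aurkb in rhPBEF to 0.67 for Bub1 in VALI. Bub1, a kinetochore checkpoint kinase, had 5.90, 6.11 and 5.52 in rhPBEF+VALI, 5.91, 5.37 and 5.11 in rhPBEF and 6.23, 6.76 and 6.25 in VALI, against 5.78, 5.87 and 5.59 in Control. Its VALI arrays lay above all other arrays, with a difference of 0.67 ± 0.22 (SE) from Control and an adjusted p of 0.247 in that fit, and VALI replicate 2 was the highest. The deposited values carry no detection call, so a low level cannot be told from background.

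Within groups the genes of G2 and mitosis varied together. Of these 20 members, 19 had their lowest value of the rhPBEF+VALI group in replicate 3, beside 38.5% of all genes tested, and 18 had their lowest value of the rhPBEF group in replicate 3, beside 35.6%. In VALI 14 of 20 were lowest in replicate 2, beside 48.6%, and in Control 16 of 20 were highest in replicate 1, beside 33.3%. Of the 15 members of G1/S and S phase, 7 were lowest in rhPBEF+VALI replicate 3, 7 in rhPBEF replicate 3 and 9 in VALI replicate 2, and 3 were highest in Control replicate 1. The classes thus lay close together in VALI replicate 2, at mean deviations of -0.14 and -0.09, and the difference between classes was not tested. The median residual SD was 0.13 on the log2 scale for the G1/S and S phase members, 0.21 for the G2 and mitosis members and 0.15 for all genes tested. Both classes include genes below the level filter: Ccne2 and Tyms in the first and Aurka, Aurkb, Birc5, Bub1, Kif11 and Kif20a in the second. The shares and SD of all genes cover only genes above it, at a median level of 8.92, against 7.33 for the tested members.

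Top2a shows the pattern, with 7.87, 7.70 and 7.23 in rhPBEF+VALI, 7.55, 7.35 and 6.90 in rhPBEF and 7.66, 7.49 and 7.69 in VALI, against 7.60, 7.38 and 7.30 in Control. Cdc20 had 8.00, 8.01 and 7.62 in rhPBEF+VALI, 8.04, 7.84 and 7.45 in rhPBEF and 8.12, 7.86 and 8.04 in VALI, against 8.11, 7.94 and 7.92 in Control. In both genes the third array of rhPBEF was the lowest of all 12. Averaged over the 20 members, replicate 3 of rhPBEF+VALI lay 0.25 below its group mean and replicate 3 of rhPBEF 0.21 below. Replicates 1 and 2 of rhPBEF+VALI lay 0.13 and 0.12 above their group mean.

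**Figure D3:**
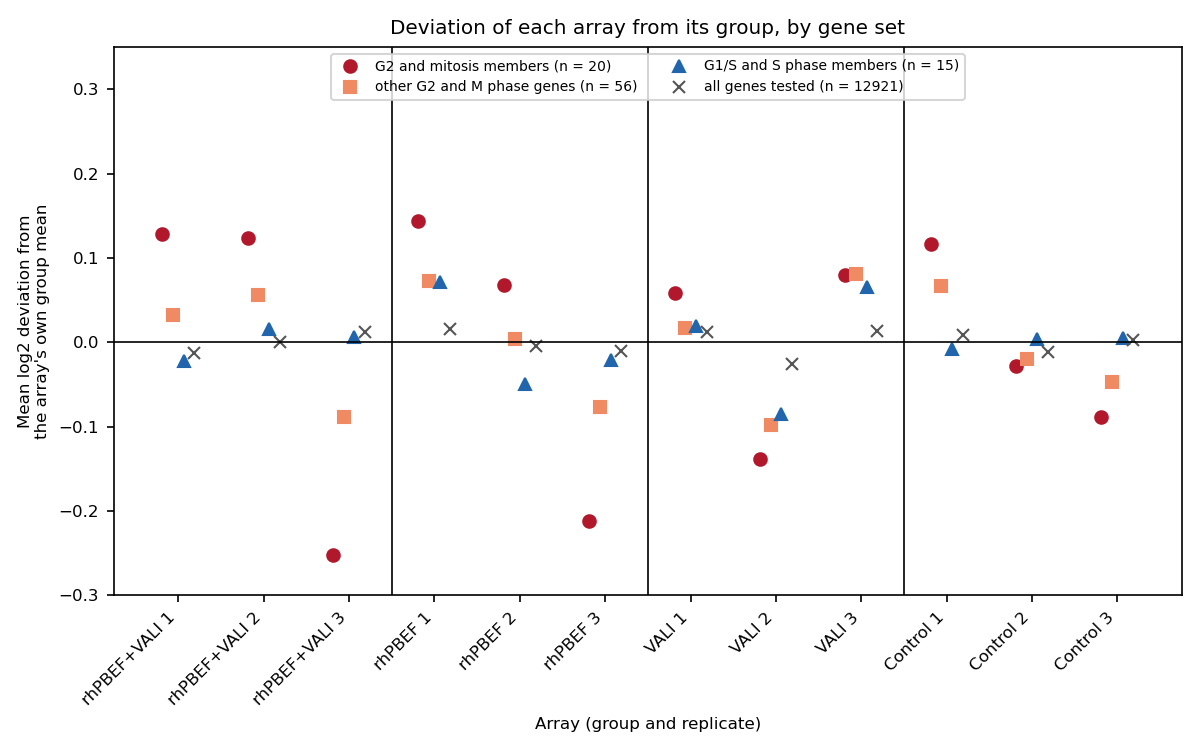
Mean log2 deviation of each array (horizontal axis, by group) from the mean of its own group, over the G2 and mitosis members, the other listed G2 and M phase genes, the G1/S and S phase members and all genes tested. The G2 and mitosis members lie at -0.25 in rhPBEF+VALI replicate 3 and -0.21 in rhPBEF replicate 3, where the G1/S and S phase members lie at 0.01 and -0.02.

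A separate list of 56 other G2 and M phase genes, none of them members, showed the same arrays in the same places, with smaller shares. Of the 56, 36 were lowest in rhPBEF+VALI replicate 3, 34 in rhPBEF replicate 3 and 39 in VALI replicate 2, and 36 were highest in Control replicate 1. Only 30 of the 56 lay above the level filter. Several technical and cellular measures moved along with some of these arrays. The 3' minus 5' signal difference of the array's control genes, a measure of RNA integrity, was the highest of the group for 4 of 4 control genes in rhPBEF+VALI replicate 3 and in rhPBEF replicate 3. It was also the highest for 4 of 4 in VALI replicate 3, an array whose G2 and mitosis members lay 0.08 above their group mean, and for 3 of 4 in Control replicate 3. Markers of T and NK lymphocytes (8 of 10 measured and tested) stood at 0.40, 0.22 and 0.00 relative to the Control mean in rhPBEF+VALI replicates 1, 2 and 3. They stood at 0.16, 0.27 and -0.18 in rhPBEF and 0.27, -0.19 and 0.31 in VALI, against -0.06, -0.06 and 0.12 in Control. Their summed level on the linear scale was 1962 to 2859 in rhPBEF+VALI, 1670 to 2415 in rhPBEF and 1681 to 2895 in VALI, against 1830 to 2235 in Control. In the 3 treated groups these markers were lowest in the array where the G2 and mitosis members were lowest, and in Control they were not. Fibroblast markers (8 of 8 measured and tested) were lowest in that array in all 4 groups. They stood at 0.01, -0.06 and -0.08 relative to the Control mean in rhPBEF+VALI replicates 1, 2 and 3, at 0.24, 0.09 and -0.21 in rhPBEF and at -0.34, -0.49 and -0.07 in VALI, against 0.13, 0.00 and -0.13 in Control. Their summed level was 39606 to 42147 in rhPBEF+VALI, 35522 to 48625 in rhPBEF and 29886 to 42973 in VALI, against 38226 to 42564 in Control. T and NK and fibroblast markers are given because, of all marker lists examined, they matched in the most groups. The other marker lists were lowest in the same array in only 1 or 2 of the 4 groups. Since these lists were picked for their match, the match carries no test. The part of RNA integrity, lymphocyte number or fibroblast number in the pattern was not tested.

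The promoters of the G2 and mitosis members were compared with those of the G1/S and S phase members, since each class is known to use its own elements. RefSeq windows from 250 bases before to 30 bases after the annotated start (GRCm38.p6) were found for 31 of 36 members, 32 windows in all. They were searched on both strands for the CHR element of mitotic genes (TTTGAA or TTCGAA), the CCAAT box (CCAAT) and an E2F core, written as TTCGCGC, with the variant TTGGCGC, the variant TTCCCGC and the variant TTGCCGC. A CHR element and a CCAAT box stood together in 13 of 19 windows of G2 and mitosis members (68.4%, 12 genes, Prc1 with 2 overlapping windows), in 2 of 13 windows of G1/S and S phase members (15.4%) and in 6.92% of all 32851 windows. An E2F core stood in 3 of 19 windows of the mitosis class (15.8%), in 6 of 13 of the replication class (46.2%) and in 8.90% of all windows. The 3 include the window of Ccnb1, whose expression was not measured here. Counted whether or not the other element was present, a CCAAT box stood in 17 of 19 (89.5%), 8 of 13 (61.5%) and 36.1%, and a CHR element in 13 of 19 (68.4%), 2 of 13 (15.4%) and 18.4%. In 2 member windows an occurrence of one motif overlapped one of another. A match is a match of letters and was not tested as a binding site.

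The windows of 4 mitosis genes and 2 helicase genes are shown, 5′ to 3′ on the strand of the gene, because they hold the elements counted here. In the first 4 capitals mark CHR elements and CCAAT boxes (ATTGG and TTCAAA on the opposite strand), and in the last 2 they mark E2F cores and CCAAT boxes. Ccnb2 is at chr9:70421525-70421804 (minus strand), Top2a at chr11:99024160-99024439 (minus), Cdc20 at chr4:118437314-118437593 (minus), Ube2c at chr2:164769679-164769958 (plus), Mcm5 at chr8:75109259-75109538 (plus) and Mcm6 at chr1:128359676-128359955 (minus).
Ccnb2: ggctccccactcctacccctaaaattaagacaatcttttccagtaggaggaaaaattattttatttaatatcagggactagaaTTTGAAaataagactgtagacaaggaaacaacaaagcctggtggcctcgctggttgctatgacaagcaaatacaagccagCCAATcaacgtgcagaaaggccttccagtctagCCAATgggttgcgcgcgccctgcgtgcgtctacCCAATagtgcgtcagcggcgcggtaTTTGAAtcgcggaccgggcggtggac
Top2a: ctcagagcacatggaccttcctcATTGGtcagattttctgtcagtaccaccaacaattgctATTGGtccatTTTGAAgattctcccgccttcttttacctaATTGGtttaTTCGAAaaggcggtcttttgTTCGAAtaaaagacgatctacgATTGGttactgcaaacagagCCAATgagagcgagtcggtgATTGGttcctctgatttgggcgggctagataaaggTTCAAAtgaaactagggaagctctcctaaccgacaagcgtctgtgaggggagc
Cdc20: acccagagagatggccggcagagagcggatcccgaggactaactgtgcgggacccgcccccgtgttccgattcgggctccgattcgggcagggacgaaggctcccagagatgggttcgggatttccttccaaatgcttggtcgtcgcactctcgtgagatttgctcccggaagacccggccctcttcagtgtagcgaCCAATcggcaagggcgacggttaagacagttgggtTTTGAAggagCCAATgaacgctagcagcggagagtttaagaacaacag
Ube2c: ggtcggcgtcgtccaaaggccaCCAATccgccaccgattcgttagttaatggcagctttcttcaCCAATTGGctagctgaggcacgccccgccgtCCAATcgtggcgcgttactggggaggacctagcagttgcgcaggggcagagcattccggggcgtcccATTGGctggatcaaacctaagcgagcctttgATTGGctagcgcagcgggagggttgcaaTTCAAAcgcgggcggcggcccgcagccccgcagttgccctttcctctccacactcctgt
Mcm5: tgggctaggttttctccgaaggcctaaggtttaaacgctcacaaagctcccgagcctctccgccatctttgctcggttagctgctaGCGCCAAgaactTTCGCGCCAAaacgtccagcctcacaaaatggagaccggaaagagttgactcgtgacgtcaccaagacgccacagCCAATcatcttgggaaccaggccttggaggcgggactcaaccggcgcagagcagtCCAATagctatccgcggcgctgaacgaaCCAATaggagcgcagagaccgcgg
Mcm6: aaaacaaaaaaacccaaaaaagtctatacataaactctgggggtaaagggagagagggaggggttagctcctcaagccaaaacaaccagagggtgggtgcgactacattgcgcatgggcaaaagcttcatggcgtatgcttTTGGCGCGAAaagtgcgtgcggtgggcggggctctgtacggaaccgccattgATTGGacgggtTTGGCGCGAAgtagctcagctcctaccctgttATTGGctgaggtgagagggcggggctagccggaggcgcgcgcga
The Top2a window holds 4 CHR elements and 6 CCAAT boxes, Ccnb2 2 and 3, Cdc20 1 and 2, and Ube2c 1 and 6, with no E2F core in any of the 4. Mcm6 holds 4 E2F cores, at 2 places where cores of opposite strands overlap, and Mcm5 holds 3, with no CHR element in either. Cdc20, Top2a and Ube2c were each lowest of their group in rhPBEF+VALI replicate 3 and rhPBEF replicate 3, as was Ccnb2. Aurka, Plk1, Nusap1 and Cdca3, with no CHR element in their windows, were also lowest in replicate 3 of both groups. Birc5, also without a CHR element, was lowest there only in rhPBEF. Mcm2 and Cdc45, the replication members with both a CHR element and a CCAAT box, were highest in replicate 3 of both groups. Whether these elements bear on the array pattern was not tested. Mcm5 and Mcm6 were highest of the rhPBEF+VALI group in replicate 3, at 7.88 and 9.24. In the rhPBEF group Mcm5 was lowest in replicate 3, at 7.60, and Mcm6 in replicate 2, at 9.01.

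Other genes of the cycle were taken from 4 lists, and 8 of them passed an adjusted p of 0.05 in at least 1 comparison. Mature neutrophil markers were higher in all 9 treated arrays, as given above. Endothelial markers (8 of 8 measured and tested) stood at -0.47, -0.39 and -0.26 relative to the Control mean in rhPBEF+VALI replicates 1, 2 and 3, at -0.25 to -0.15 in rhPBEF and at -0.46 to -0.31 in VALI, against -0.08 to 0.08 in Control. Of the 8, 5 had a negative difference from Control in rhPBEF+VALI, 7 in rhPBEF and 7 in VALI. In rhPBEF+VALI 2 of the 8 fell past the threshold, beside 8.79% of all genes tested in either direction (628 genes lower and 508 higher). The summed level of the 8 markers was 27149 to 32584 in rhPBEF+VALI, 31574 to 34245 in rhPBEF and 25261 to 30980 in VALI, against 35767 to 39493 in Control. The part of either cell type in these calls was not tested. Of 31 other S phase genes tested, 3 fell and 0 rose in rhPBEF+VALI against Control, beside 8.79% of all genes tested in either direction. Their median was -0.10, against -0.06 over all genes. In rhPBEF against Control and in VALI against Control 0 of 31 passed, and 7 and 3 had an unadjusted p under 0.05, beside 18.3% and 15.5%. Of 30 other G2 and M phase genes tested, 0 passed in each of the 8 comparisons, with 4 at an unadjusted p under 0.05 in rhPBEF+VALI against Control, beside 27.5%.

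Gmnn, the gene of geminin, which blocks relicensing of DNA by binding Cdt1, had 6.78, 7.32 and 7.53 in rhPBEF+VALI, 7.39, 7.12 and 7.62 in rhPBEF and 7.83, 7.42 and 7.65 in VALI, against 8.12, 8.01 and 8.11 in Control. All 9 treated arrays were below all Control arrays. It fell by 0.87 ± 0.19 (SE) on the log2 scale in rhPBEF+VALI, to 0.547 of Control, with a limma adjusted p of 0.0227, and by 0.56 in the effect of rhPBEF averaged over ventilation (adjusted p = 0.0367). The rhPBEF difference alone was -0.70 (adjusted p = 0.102). The call in rhPBEF+VALI was lost without any 1 Control array (adjusted p of 0.0847, 0.0688 and 0.0727 without replicates 1, 2 and 3) and without rhPBEF+VALI replicate 1 (-0.66, adjusted p = 0.0784) or replicate 2 (adjusted p = 0.0675). The averaged call was kept only without VALI replicate 2 or 3, rhPBEF replicate 3 or rhPBEF+VALI replicate 3, and otherwise reached an adjusted p of 0.0953, without rhPBEF replicate 2. The number of all genes past 0.05 also moved between settings, from 152 to 7579 in rhPBEF+VALI against Control. For rhPBEF averaged over ventilation it ran from 234 to 4417. The calls lost here and for the genes below are therefore not shown to be particular to them.

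Rpa1, the large subunit of the single-strand DNA binding protein, fell by 0.51 ± 0.13 in rhPBEF+VALI (limma adjusted p = 0.0400). It had 10.25, 10.49 and 10.73 in rhPBEF+VALI, against 10.90, 10.93 and 11.16 in Control, and the groups did not overlap. Pold1, the catalytic subunit of DNA polymerase delta, had 7.63, 7.64 and 7.77 in rhPBEF+VALI, against 8.04, 8.04 and 8.10 in Control, and fell by 0.38 ± 0.10 (adjusted p = 0.0453). With each array centred on its median the adjusted p was 0.0513 for Rpa1 and 0.0614 for Pold1. Without a single Control array it lay between 0.0934 and 0.126 for Rpa1 and between 0.115 and 0.125 for Pold1. Without rhPBEF+VALI replicate 1 or 2 it was 0.167 or 0.114 for Rpa1, whose difference was -0.39 without replicate 1, and 0.174 or 0.138 for Pold1. The adjusted p also exceeded 0.05 for Rpa1 without VALI replicate 1, rhPBEF replicate 1 or rhPBEF replicate 2 (up to 0.0517). For Pold1 it did so without VALI replicate 1 or rhPBEF replicate 3 (up to 0.0595).

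Of 23 tested D cyclin, Cdk and G1 control genes, 2 fell and 0 rose in rhPBEF+VALI against Control. The share of all genes past in either direction was 8.79% (628 genes lower and 508 higher). In rhPBEF 1 fell, beside 1.22% in either direction (37 genes lower and 121 higher). Mycl, a member of the Myc family, had 7.43, 7.09 and 7.53 in rhPBEF+VALI, 7.44, 7.52 and 7.70 in rhPBEF and 7.85, 8.06 and 7.65 in VALI, against 8.30, 8.31 and 8.26 in Control. The Control arrays were tightly grouped above all 9 treated arrays. Mycl fell by 0.94 ± 0.13 (SE) in rhPBEF+VALI (limma adjusted p = 0.00504), a call kept in all 24 other settings, and the VALI difference was -0.44 (adjusted p = 0.192). Cdc25b, a phosphatase that activates Cdk complexes, had 7.76, 7.84 and 8.03 in rhPBEF+VALI, against 8.50, 8.38 and 8.47 in Control, and fell by 0.57 ± 0.15 (adjusted p = 0.0450). Without any 1 Control array its adjusted p lay between 0.104 and 0.135, without rhPBEF+VALI replicate 1 or 2 it was 0.179 or 0.132, and without rhPBEF replicate 3 it was 0.0545. For Mycl in rhPBEF (-0.74, adjusted p = 0.0232) it was 0.0954 to 0.104 without a Control array and 0.0998 or 0.110 without rhPBEF replicate 1 or 2. Myc, the family's founding member, stood at 0.77 in rhPBEF+VALI (adjusted p = 0.182) and at 0.73 in VALI (adjusted p = 0.350).

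Of 19 tested Cdk inhibitors and antiproliferative genes, 2 rose and 0 fell in rhPBEF+VALI against Control, beside 8.79% of all genes in either direction. In rhPBEF and in VALI 0 passed, and 4 and 6 had an unadjusted p under 0.05, beside 18.3% and 15.5%. The 3 of 31, 2 of 23 and 2 of 19 listed genes past the threshold in rhPBEF+VALI lie near the 8.79% of all genes. Btg1, which restrains proliferation and is high in resting leukocytes, had 13.10, 12.95 and 12.75 in rhPBEF+VALI, 12.78, 12.83 and 12.73 in rhPBEF and 12.65, 13.01 and 12.30 in VALI, against 12.22, 12.23 and 12.13 in Control. All treated arrays were above all Control arrays. It rose by 0.74 ± 0.15 (SE) in rhPBEF+VALI, 1.67-fold, with a limma adjusted p of 0.0202, and all 3 of its probe sets were higher (0.74, 0.81 and 1.35). Without any 1 Control array the adjusted p lay between 0.0670 and 0.0728, and without rhPBEF+VALI replicate 1 or 2 it was 0.0985 or 0.0744. In the effect of rhPBEF averaged over ventilation Btg1 rose by 0.43 ± 0.11 (adjusted p = 0.0461), a call kept without VALI replicate 2 or 3 or rhPBEF+VALI replicate 3 and lost without each other single array, up to 0.119 without rhPBEF+VALI replicate 1.

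Gadd45g, a growth arrest and DNA damage gene, rose by 1.38 ± 0.34 (SE) in rhPBEF+VALI, 2.60-fold (limma adjusted p = 0.0345). Its levels were 11.35, 11.34 and 11.20 in rhPBEF+VALI, 10.68, 11.24 and 10.81 in rhPBEF and 10.74, 11.70 and 11.27 in VALI, against 9.53, 9.42 and 10.80 in Control. Control replicate 3 stood more than 1 log2 unit above the other Control arrays, and without replicate 1 or 2 the difference was 1.18 or 1.13 (adjusted p of 0.124 and 0.119). Without rhPBEF+VALI replicate 1 or 2 the adjusted p was 0.132 or 0.108. In VALI it stood at 1.32 (adjusted p = 0.150), beside Gadd45a at 1.04 (adjusted p = 0.203) and the stress-induced polo-like kinases Plk2 at 0.92 (adjusted p = 0.227) and Plk3 at 0.77 (adjusted p = 0.176). Cdkn2d, the p19 inhibitor of Cdk4 and Cdk6, had 10.16, 9.83 and 9.58 in rhPBEF+VALI, 10.09, 10.22 and 9.75 in rhPBEF and 9.82, 9.39 and 9.41 in VALI, against 9.43, 9.39 and 9.40 in Control. It rose by 0.47 ± 0.12 in the effect of rhPBEF averaged over ventilation (adjusted p = 0.0497). That call was kept without VALI replicate 1, rhPBEF replicate 3 or rhPBEF+VALI replicate 3 and lost without each of the other 9 arrays, the adjusted p reaching 0.125 without rhPBEF replicate 2.

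**Figure D4:**
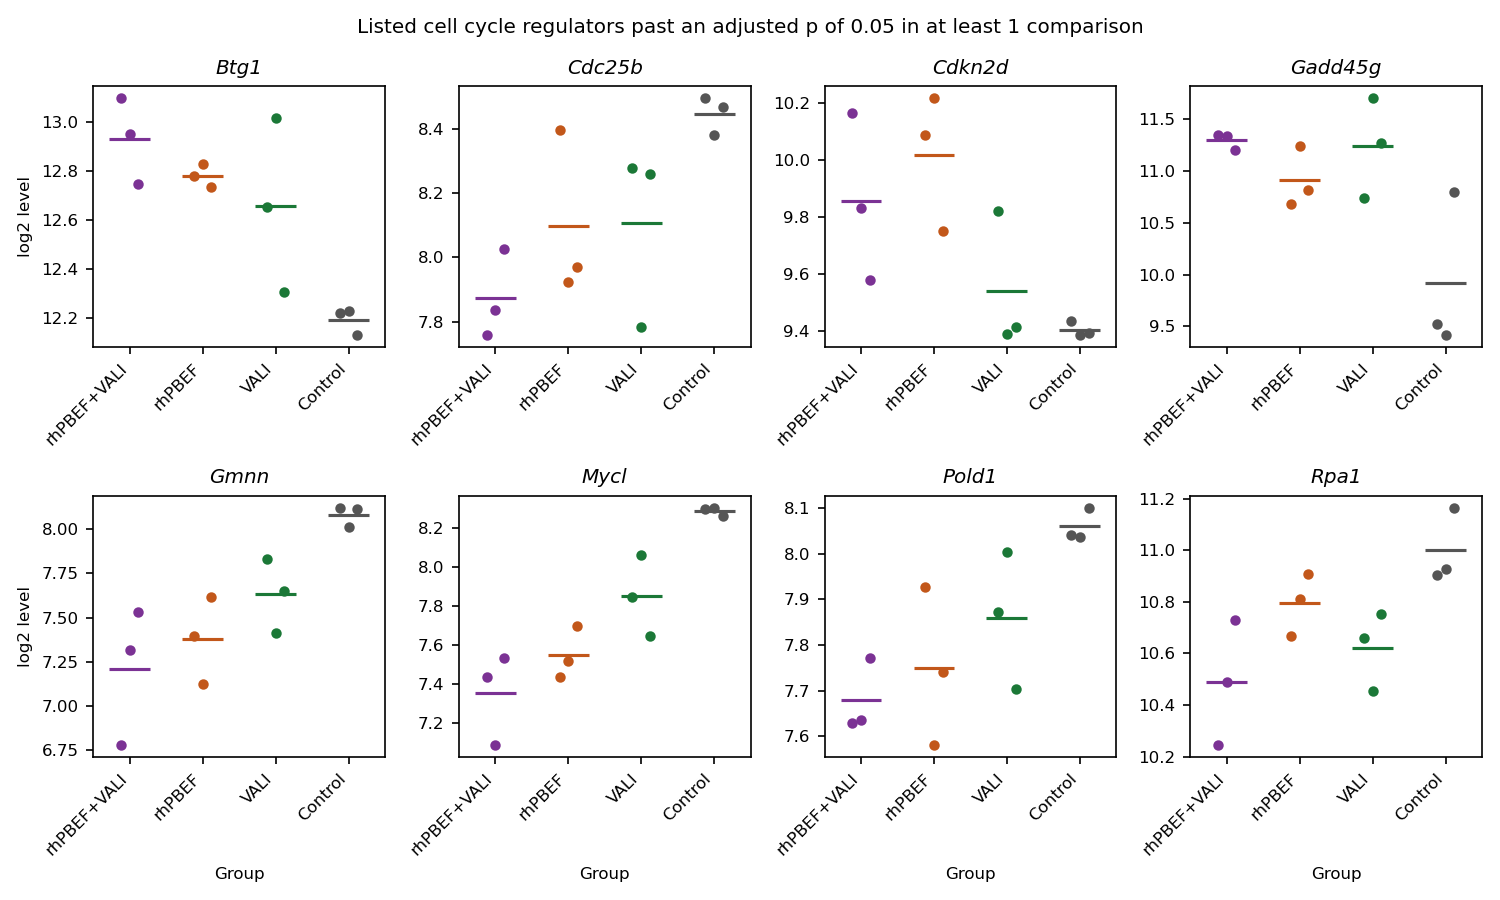
log2 levels (vertical axes, each with its own range) of the 8 listed cell cycle regulators past an adjusted p of 0.05 in at least 1 comparison, with 1 point for each array and a bar at the mean of 3. In Gmnn, Mycl and Btg1 all 9 treated arrays lie on the same side of all 3 Control arrays.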

How the data were processed

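Whole-lung RNA was measured on 12 arrays in 4 groups of 3, assigned from the sample titles. The deposited table holds 1 log2 value for each of 45101 probe sets on each array, already processed by the authors. The submitters' processing notes name MAS5 and GCRMA, with no version or role.

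Probe sets annotated to 1 gene symbol were kept above the 40th percentile of 12-array means (log2 6.42), with the highest probe set standing for each gene, which gave 12921 genes. Differences between the 4 group means came from limma 3.58.1 (lmFit and eBayes, R 4.3.3), adjusted by Benjamini and Hochberg over all genes, with 0.05 as the threshold. For 3 arrays against 3 the smallest exact two-sided p would be 0.1. Members and lists were chosen with earlier results of these data known. All members may be named. From the other lists, genes past 0.05 or otherwise the 4 largest differences in a comparison were eligible. Of 24 members with several probe sets, 13 had more than 1 above the filter, and these differed in sign for 1 to 5 genes in a comparison. Promoters are from RefSeq (GRCm38.p6).

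On simulated data with 12921 genes, 46.6% of changes of 0.5 on the log2 scale and 84.0% of changes of 1 were recovered for rhPBEF against Control (4.11% false among calls), and 44.0% and 86.2% for VALI (3.39% false). The simulated noise was normal and independent between genes, with no outlying array, whereas genes on the real arrays varied together. These shares therefore do not give the recovery on the real arrays. In VALI against Control 0 of 8 mature neutrophil markers passed, at a median difference of 2.62. Alternatives changed the filter, normalisation, variance model, weights, probe set choice, replicate block and arrays used. Gene-by-gene weights, and a fit leaving out the 2 arrays rich in muscle genes, were added after seeing the data. Plots were made in matplotlib 3.10.9 (Python 3.11.15).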

Additional observations from a re-analysis of the deposited data

How the results depend on the processing

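The number of members past 0.05 stayed at 0 in VALI against Control and in the interaction under every alternative run. Over these settings all genes past 0.05 numbered 0 to 1123 in VALI against Control and 0 to 4 in the interaction. Where few or no genes passed, a count of 0 members says nothing particular about the members. Changes of the member counts in the other comparisons came mostly from array weights. Their estimate stopped before converging, with weights from 0.165 for VALI replicate 2 to 22.7 for rhPBEF+VALI replicate 2. With array weights 13 members passed in rhPBEF+VALI against Control, 1 in rhPBEF against Control, 4 in rhPBEF+VALI against VALI, 2 in rhPBEF+VALI against rhPBEF, 7 for ventilation averaged over rhPBEF and 3 for rhPBEF averaged over ventilation. With weights estimated gene by gene (0.182 to 6.40), the counts were 7 in rhPBEF+VALI against Control, 1 in rhPBEF against Control, 3 for ventilation averaged and 2 for rhPBEF averaged. Over all settings run, all genes past 0.05 numbered 152 to 7579 in rhPBEF+VALI against Control and 44 to 1735 in rhPBEF against Control. They numbered 3 to 3029 in rhPBEF+VALI against VALI and 0 to 670 in rhPBEF+VALI against rhPBEF. The ranges were 6 to 2913 for ventilation averaged and 234 to 4417 for rhPBEF averaged. The member counts were not tested against these numbers. Cdca3 in rhPBEF+VALI against Control, at 0.00 with equal weights, was 0.21 with array weights. In the same comparison the count was 1 with the 60th percentile filter, 1 with arrays centred on their medians and 1 with the mean of probe sets, Mcm4 each time. It was 2 with the probe set of largest SD and 2 with every probe set, Mcm4 and Mcm5. With the mean of probe sets it was 1 for rhPBEF averaged. Leaving out 1 array gave 0 to 1 in rhPBEF+VALI against Control, 0 to 2 for ventilation averaged (Cdca8 and Prc1 without rhPBEF+VALI replicate 3) and 0 to 1 for rhPBEF averaged (Rrm2 without VALI replicate 2, Mcm4 without rhPBEF+VALI replicate 3). Where a group was left with 2 arrays, its spread was taken from the pooled fit. The cause of these changes was not tested.

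The labels state no pairing by replicate number, and 7 of 18 pairs with the same number in different groups correlated above 0.1. Correlations ran from -0.21 to 0.53. The highest were those of rhPBEF+VALI with rhPBEF in replicates 3 (0.53) and 1 (0.34) and with VALI in replicate 3 (0.36). No values are given for pairs with different numbers, so these correlations cannot show whether the replicate number marks a batch. The 3' minus 5' difference was highest in replicate 3 of each group, for 3 or 4 of 4 control genes. Whether arrays of the same number were processed together is not stated. With the replicate block 0 members passed in each of the 8 comparisons, and the share of all genes past in that fit is not given here. Centring moved no median of the members by more than their median residual SD of 0.16, a limit wider than the medians themselves. It did change single calls in rhPBEF+VALI against Control: Mcm4 passed, and Rpa1 and Pold1 no longer did. The deposited values carry no background measure, so levels near the filter limit what can be said of Cdc6, Cdca3 and the 8 genes below it.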

Other observations

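Several further listed regulators lay just outside the threshold in rhPBEF+VALI against Control (limma adjusted p). Cdkn2c, the p18 inhibitor of Cdk4 and Cdk6, stood at -0.82 ± 0.23 (SE, adjusted p = 0.0538) and the retinoblastoma-related repressor gene Rbl2 at -0.49 ± 0.15 (adjusted p = 0.0663). E2f2, an activating E2F, stood at -0.48 ± 0.14 (adjusted p = 0.0532), and the stress-induced kinase gene Plk3 at 0.77 ± 0.22 (adjusted p = 0.0511). In each of these genes the rhPBEF+VALI and Control arrays did not overlap.

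In VALI against Control the largest differences among listed S, G2 and M phase genes were those of the replication checkpoint kinase gene Chek1, at 0.82 ± 0.39 (SE, limma adjusted p = 0.339), and of Cks2, a small Cdk-binding protein gene, at 0.73 ± 0.22 (adjusted p = 0.190). Both were higher in each VALI array than in each Control array, and neither passed the test.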
